A study of Mus musculus with 12 samples.

Results

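The S100 genes described here are S100a1, S100a4, S100a6, S100a10, S100a11, S100a13, S100a14 and S100a16, 8 of the 18 S100 genes among the 55471 gene identifiers of the series. They were taken by gene symbol. The rule names no measured value, but the list was chosen with earlier results of these data known. RNA of mouse left kidneys (strain C57/BL6, age 8 to 12 weeks) was sequenced from an mRNA library kit in 12 libraries of 4 groups. A clamp placed on the left ureter to stop the outflow of urine (unilateral ureteral obstruction, UUO) defined the time axis. There were 3 libraries of Sprr2f knockout (KO) kidneys at day 5 and 4 at day 0, and 3 libraries of wild type (WT) kidneys at day 5 and 2 at day 0. No agent, further allele or transgene is named for any group. The labels do not say how the Sprr2f allele was made, whether day 0 kidneys had a sham operation, or whether replicates were more than separate samples. The p-values therefore describe only the spread among these libraries, which may in part be technical.

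S100 proteins are small calcium sensors that bind calcium through a pair of EF hands, form dimers and then dock onto partner proteins such as annexins. S100A10 differs from the others in that its EF hands no longer bind calcium. In the kidney, S100 proteins occur in tubular and collecting duct epithelium, in the urothelium of the renal pelvis, and in fibroblasts and leukocytes. Several are known for rising in injured or spreading epithelium, and some act outside the cell through receptors such as RAGE, the product of Ager.

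Levels below are scaled CPM, the deposited CPM (counts scaled to a common library total) divided by a composition factor (TMM) per library. Fold changes are on the log2(scaled CPM + 0.5) scale, with p-values from limma adjusted by the Benjamini-Hochberg method over all 18093 genes tested and called under 0.05. The libraries held 16567256 to 19398882 reads. The knocked-out gene Sprr2f stood at 0, 1.92 and 3.53 scaled CPM in KO kidneys at day 5, against 22.8, 22.5 and 49.9 in WT kidneys at day 5, and was at or under 0.309 in every day 0 library. All 10 kidney-defining markers were detected in every group. Sex chromosome transcripts split the libraries into 7 with Y-linked transcripts and 5 with Xist, although the series is described as one of female mice. The Y-linked libraries were replicate 2 of KO day 5, all 4 of KO day 0, replicate 3 of WT day 5 and replicate 1 of WT day 0. KO day 5, WT day 5 and WT day 0 thus each held both patterns, and so more than 1 animal.

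All 8 genes lie on mouse chromosome 3 (GRCm38, GENCODE M21), as does Sprr2f, at 92365187 to 92366442 on the plus strand. S100a1 (ENSMUSG00000044080, 90511034 to 90514392, minus strand) and S100a13 (ENSMUSG00000042312, 90514435 to 90524581, plus strand) stand head to head, and the gap between them is 42 bases long. S100a14 (ENSMUSG00000042306, 90526856 to 90528837) and S100a16 (ENSMUSG00000074457, 90537254 to 90543151) follow on the plus strand. S100a4 (ENSMUSG00000001020, 90603771 to 90606045) and S100a6 (ENSMUSG00000001025, 90612882 to 90624181) lie farther along the same strand. S100a11 (ENSMUSG00000027907, 93520488 to 93526287) and S100a10 (ENSMUSG00000041959, 93555080 to 93564643) stand apart, on the far side of the Sprr cluster.

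The sequences shown are stretches next to gene starts, all on the plus strand and read from RefSeq sequence of GRCm38.p6. The first is the gap between S100a1 and S100a13 (chr3:90514393-90514434), shown because the genes on its 2 sides moved in opposite directions under the scaling used. With library size alone, S100a1 turned and was not called. The others are the 250 bases before the RefSeq starts of S100a6 (chr3:90612644-90612893), the member with the highest fold change, and of S100a11 (chr3:93520246-93520495), the member with the most motif matches. Capitals mark AP-1 motifs (TGANTCA) and GC boxes (GGGCGG), searched on both strands.
S100a1/S100a13 gap: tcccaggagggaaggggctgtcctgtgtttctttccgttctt
S100a6 upstream: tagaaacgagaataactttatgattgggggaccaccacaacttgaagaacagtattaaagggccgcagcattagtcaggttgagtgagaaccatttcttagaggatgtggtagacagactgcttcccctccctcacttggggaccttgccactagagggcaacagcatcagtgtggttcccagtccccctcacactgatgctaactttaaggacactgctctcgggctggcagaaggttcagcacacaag
S100a11 upstream: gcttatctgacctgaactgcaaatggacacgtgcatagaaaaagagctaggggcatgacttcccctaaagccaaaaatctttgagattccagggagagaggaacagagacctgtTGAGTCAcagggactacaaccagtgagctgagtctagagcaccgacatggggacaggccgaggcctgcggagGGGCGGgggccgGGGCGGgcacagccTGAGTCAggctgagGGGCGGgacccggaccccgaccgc

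The S100a11 stretch holds 2 AP-1 motifs, starting 136 and 38 bases before the gene start, and 3 GC boxes. The S100a6 stretch holds neither motif. Of the 32851 RefSeq promoter windows of 300 bases, 7.81% hold an AP-1 motif and 35.7% a GC box. Windows were present for 6 of the 8 genes, S100a16 with 2 of them, and the one at the second S100a16 start held 1 AP-1 motif and 1 GC box. The TEAD motif GGAATG (14.7% of all windows) was in no window of these genes, and TATAAA (13.6%) was in that of S100a4 alone. The gap between S100a1 and S100a13 holds no match to any of the 4 motifs. A match is a match of letters and was not tested as a binding site. S100a10 and S100a14 had no window.

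S100a4, known in mouse as the fibroblast-specific protein and as a partner of non-muscle myosin, could not be measured. It had 2 reads in the whole series, 1 in replicate 3 of KO day 5 and 1 in replicate 1 of WT day 5. Of its 584 exon bases, 302 are shared on the same strand with the annotated gene Gm42674, itself at 0 reads in every library, and 282 are not shared. Of the 534 distinct 50-base sequences of its transcripts, 253 also occur in Gm42674. How reads falling on both genes were handled is not given in the sources used here, and no level of S100a4 can be read from these values. The other 7 genes passed the filter on low counts and were tested.

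All 7 measured genes were called for obstruction in both genotypes under the scaling used. S100a6, S100a10, S100a11, S100a13, S100a14 and S100a16 were higher at day 5 than at day 0 in KO and in WT kidneys. S100a1 was lower. Its direction turned when libraries were scaled by size alone, where it was called in neither genotype. All 7 were called in KO kidneys, where 54.8% of all tested genes were called, 29.4% higher and 25.4% lower. All 7 were called in WT kidneys, where 47.1% of all tested genes were called, 24.5% higher and 22.6% lower. The median log2 fold change of the 7 genes was 1.21 in KO and 1.27 in WT kidneys, beside 0.07 and 0.04 over all genes tested. No day 5 library overlapped a day 0 library of its genotype for any of the 7, which was also so for 55.1% of all tested genes in KO and 65.1% in WT kidneys. In whole tissue, fewer cells of a type and less RNA per cell cannot be told apart.

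**Figure D1:**
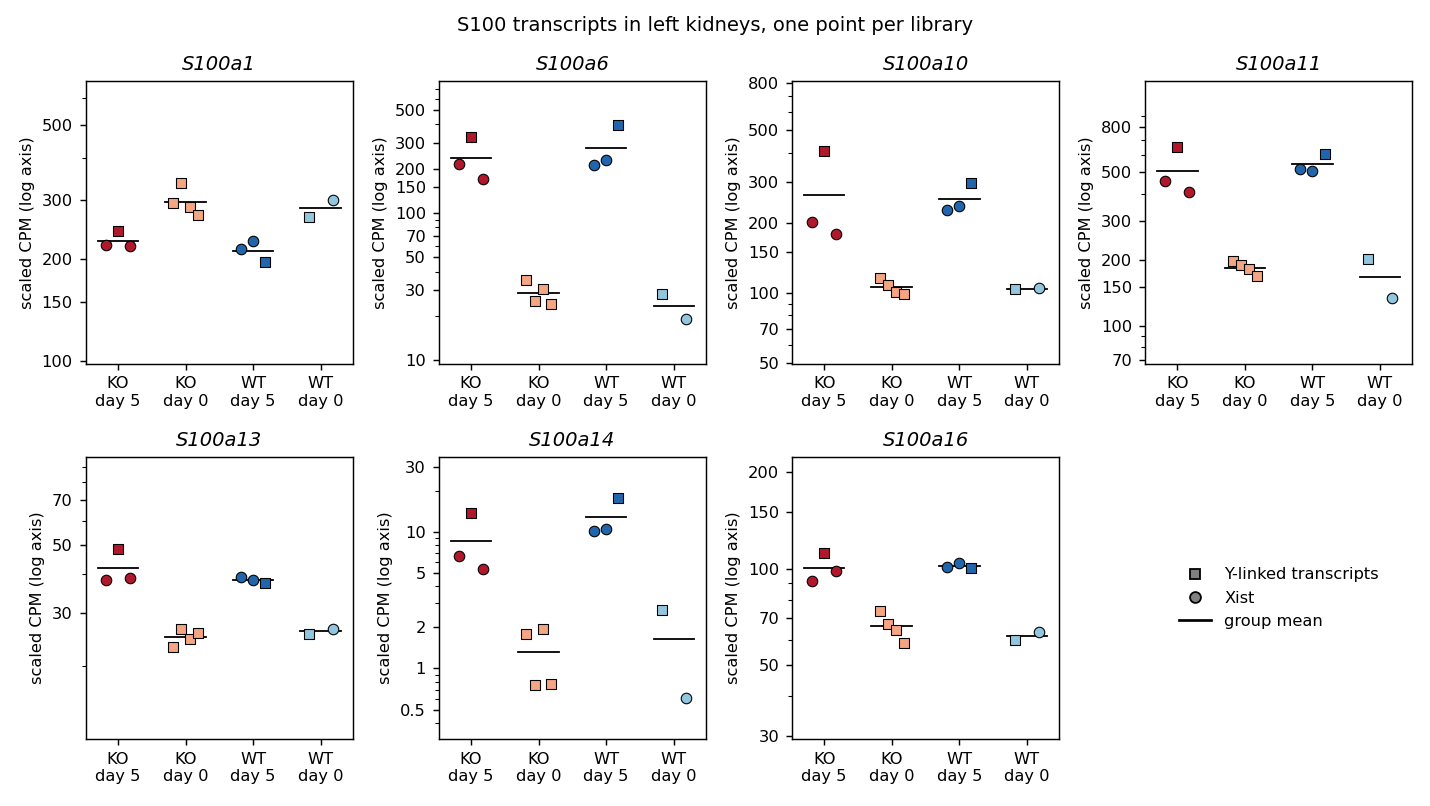
Scaled CPM (log axis) of 7 S100 genes in each library, by group; squares are libraries with Y-linked transcripts, circles those with Xist, and black lines group means. Day 5 libraries lie above day 0 libraries for 6 genes and below them for S100a1 (which turned and was not called with library size scaling). Replicate 2 of KO day 5 is the highest KO day 5 library in all 7 panels.

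**Figure D2:**
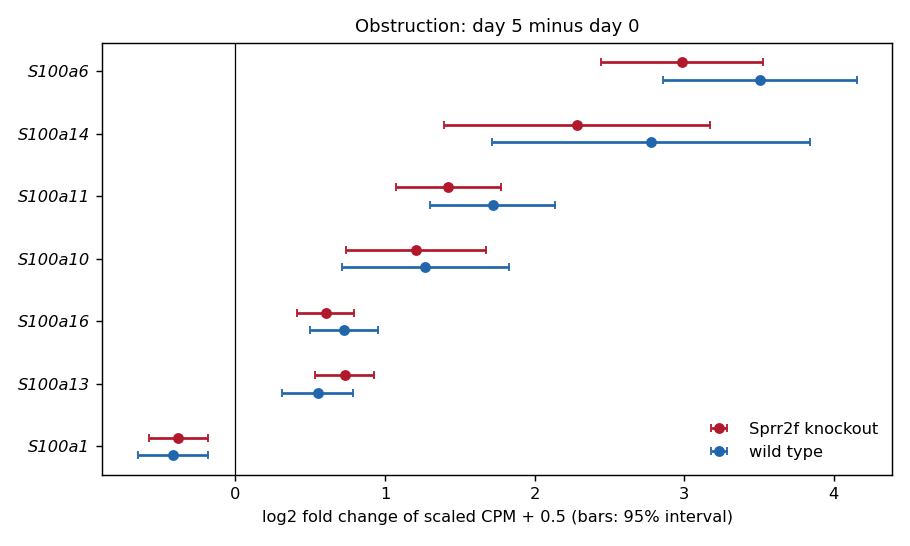
Log2 fold change from obstruction (day 5 minus day 0) with 95% intervals from limma, in Sprr2f knockout and wild type kidneys. The changes span -0.38 (S100a1) to 2.99 in KO and -0.42 (S100a1) to 3.51 in WT kidneys. With library size scaling, S100a1 turned and was called in neither genotype. The intervals of the genotypes overlap for every gene.

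S100a6 (calcyclin), which binds annexins and the ubiquitin ligase adaptor CACYBP, changed by the highest factor. It stood at 215, 329 and 170.0 scaled CPM in KO kidneys at day 5, against 35.0, 25.4, 30.7 and 24.0 at day 0. WT kidneys held 211, 231 and 394 at day 5, against 28.1 and 19.0 at day 0. The lowest day 5 library was thus well above the highest day 0 library in each genotype. The fold change was 7.92 in KO kidneys (95% interval 5.44 to 11.5, adjusted p = 7.41e-07) and 11.4 in WT kidneys (7.25 to 17.8, adjusted p = 1.39e-06).

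S100a14, an epithelial member found in stratified and transitional epithelia, had the fewest reads of the 7 and the second highest fold change. It stood at 6.61, 13.8 and 5.39 scaled CPM in KO kidneys at day 5 (116 to 281 reads), against 1.79, 0.759, 1.94 and 0.774 at day 0 (10 to 30 reads). WT kidneys held 10.1, 10.4 and 17.8 at day 5, against 2.66 and 0.604 at day 0, where the libraries had 44 and 10 reads. Its log2 fold change was 2.28 ± 0.41 (SE, adjusted p = 0.000445) in KO and 2.78 ± 0.49 (adjusted p = 0.000475) in WT kidneys, and day 5 and day 0 libraries did not overlap. The WT value rested on how the 2 day 0 libraries differed: it was 3.54 without replicate 1 and 2.02 without replicate 2, both still called. Among KO day 0 kidneys, replicates 1 and 3, with the highest S100a14, also had the highest summed level of 8 urothelial markers, 50.1 and 40.8 scaled CPM against 27.0 and 16.5 in replicates 2 and 4. The WT day 0 libraries were ordered alike, at 49.9 and 17.1 for replicates 1 and 2. At day 5 that sum was 84.3 to 179.5 in KO and 94.3 to 304 in WT kidneys, and 7 of the 8 urothelial markers rose in each genotype. Over all tested genes, 29.4% were called higher in KO and 24.5% in WT kidneys. The part of urothelial tissue in the S100a14 values was not tested.

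S100a11 (calgizzarin), a partner of annexin A1 and of other annexins, was the most abundant of the 7 genes per length at day 5. It stood at 455, 651 and 407 scaled CPM in KO kidneys at day 5, against 198, 189, 181 and 169 at day 0. In WT kidneys it stood at 520.0, 507 and 606 at day 5, against 201 and 134 at day 0. All 6 day 5 libraries were at least at 407 and all 6 day 0 libraries at or below 201. The fold change was 2.68 in KO kidneys (95% interval 2.11 to 3.42, adjusted p = 9.89e-06) and 3.30 in WT kidneys (2.47 to 4.40, adjusted p = 1.22e-05). Of its 462 distinct 50-base sequences, 190 (41.1%) also occur in the pseudogenes Gm12854, Gm29240 or Gm7665, so part of its reads could have been assigned elsewhere or dropped.

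S100a10 (p11) forms a tetramer with annexin A2, carries channels such as TRPV5 and TRPV6 to the cell surface and binds plasminogen activators and plasminogen. It stood at 201, 407 and 178 scaled CPM in KO kidneys at day 5, against 115, 108, 101 and 99.3 at day 0. WT kidneys held 228, 236 and 297 at day 5, against 103 and 105 at day 0. Day 0 levels were tight in both genotypes, while the KO day 5 libraries spread widely, with a coefficient of variation of 47.9%. The log2 fold change was 1.21 ± 0.22 (adjusted p = 0.000438) in KO and 1.27 ± 0.26 (adjusted p = 0.00135) in WT kidneys. Among Y-linked libraries alone, where KO day 5 is replicate 2, the KO value was 1.95. With any single library left out, the KO value ran from 0.84 to 1.43 and stayed called. The WT call was lost with a 1.5-fold threshold (limma, adjusted p = 0.0593).

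S100a16 and S100a13 rose by less and varied little within groups. S100a16, a broadly expressed member, stood at 91.8, 112 and 98.4 scaled CPM in KO kidneys at day 5, against 74.0, 67.2, 64.4 and 58.6 at day 0. WT kidneys held 101, 104 and 101 at day 5, against 59.9 and 63.5 at day 0. The days did not overlap in either genotype, at a fold change of 1.52 in KO (95% interval 1.33 to 1.74, adjusted p = 8.33e-05) and 1.65 in WT kidneys (1.41 to 1.93, adjusted p = 0.000104).

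S100a13, which helps release FGF1 and interleukin-1α from cells without a signal peptide, stood at 38.3, 48.5 and 39.0 scaled CPM in KO kidneys at day 5, against 23.1, 26.5, 24.6 and 25.7 at day 0. WT kidneys held 39.2, 38.2 and 37.6 at day 5, against 25.6 and 26.4 at day 0. Apart from replicate 2 of KO day 5, the day 5 libraries of both genotypes lay within 37.6 and 39.2. The fold change was 1.66 in KO kidneys (95% interval 1.45 to 1.90, adjusted p = 2.47e-05) and 1.46 in WT kidneys (1.24 to 1.73, adjusted p = 0.00118).

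S100a1, best known as a regulator of the calcium pump SERCA2 and the ryanodine receptor in heart muscle, was the single member that was lower after obstruction, and its direction turned with library size scaling. It stood at 220.3, 242 and 219 scaled CPM in KO kidneys at day 5, against 293, 338, 286 and 270.2 at day 0. WT kidneys held 214, 227 and 196 at day 5, against 268 and 300.4 at day 0. The levels at the 2 days did not overlap, but the change was small. Its log2 fold change was -0.38 ± 0.09 (adjusted p = 0.00303) in KO and -0.42 ± 0.11 (adjusted p = 0.0062) in WT kidneys. With library size alone, which moves the median of all genes up by 0.44 log2 units in KO and 0.41 in WT kidneys, the values were 0.069 in KO (adjusted p = 0.45) and 0.0042 in WT kidneys (adjusted p = 0.973). The WT call was also lost without replicate 2 of WT day 0 (-0.34, adjusted p = 0.0754).

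Ratios between S100 genes within a library do not depend on the scaling of libraries. Ratios of other pairs were also taken, and the following 2 pairs are ones that separated the days without overlap. For S100a13 to S100a1 the separation follows from the levels above and adds no further support. S100a11 to S100a10 ratios overlapped between the days in KO kidneys (1.60 to 2.28 at day 5, 1.70 to 1.79 at day 0). In WT kidneys they did not (2.04 to 2.28 at day 5, 1.28 to 1.94 at day 0). The head-to-head pair gave S100a13 to S100a1 read ratios of 0.174 to 0.200 in KO kidneys at day 5 and 0.0784 to 0.0952 at day 0. The ratios were 0.168 to 0.191 in WT kidneys at day 5 and 0.0879 to 0.0957 at day 0. S100a6 to S100a11 ratios were 0.418 to 0.505 in KO kidneys at day 5 and 0.135 to 0.177 at day 0. They were 0.405 to 0.651 in WT kidneys at day 5 and 0.140 to 0.141 at day 0. Such ratios show that the genes of a pair changed unequally, not which one changed.

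Per kilobase of exon, the make-up of the S100 transcript pool shifted. S100a1 made up 18.4% of the summed scaled CPM per kilobase of the 7 genes in KO kidneys at day 5 and 43.9% at day 0. In WT kidneys its share was 16.2% at day 5 and 44.9% at day 0. S100a11 took 53.8% in KO kidneys at day 5 and 37.0% at day 0, and 55.8% in WT kidneys at day 5 and 35.5% at day 0. The share of S100a6 was 9.37% in KO kidneys at day 5 and 2.17% at day 0, and 10.5% in WT kidneys at day 5 and 1.87% at day 0. S100a1 was first and S100a11 second in mean level at day 0 in both genotypes, and S100a11 was first at day 5. Those 2 genes did not stand apart in replicate 1 of WT day 0, where their shares were 40.2% and 41.0%. In KO kidneys at day 5, the level per kilobase was 987 ± 253 scaled CPM (SD, n = 3) for S100a11, 328 ± 18.9 for S100a1, 216 ± 104 for S100a10 and 174 ± 59.9 for S100a6. S100a16 (62.3 ± 6.32), S100a13 (58.6 ± 8.03) and S100a14 (4.99 ± 2.65) followed. Libraries of S100a1 and S100a10, of S100a10 and S100a6, and of S100a16 and S100a13 overlapped in that group. Next to S100a1 at day 5 the order depended on the length used: with the median length of coding transcripts, S100a10 and S100a6 (18.3% and 16.5% in KO, 17.5% and 18.4% in WT kidneys) stood above S100a1 (15.8% and 13.8%), whereas with all exon bases they stood below it.

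**Figure D3:**
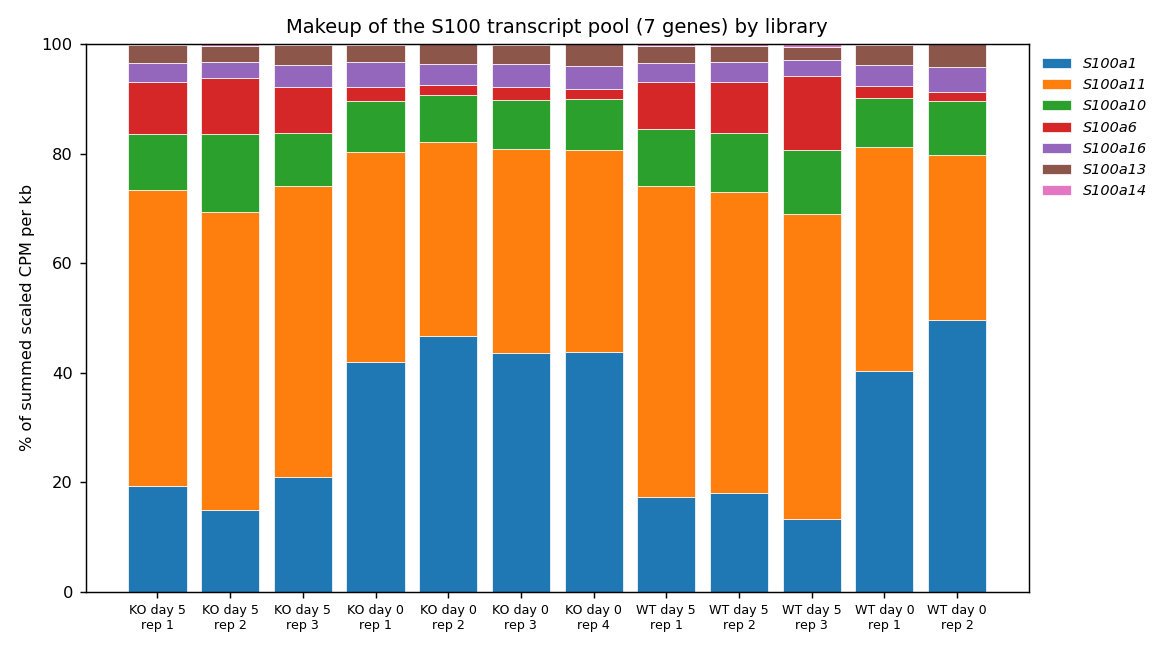
Share of each of 7 S100 genes in their summed scaled CPM per kilobase of exon, one bar per library. S100a1 holds 40.2% to 49.6% in day 0 bars and 13.3% to 21% in day 5 bars, and S100a11 and S100a6 take larger shares at day 5.

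None of the 7 genes was called for KO against WT at day 5, where 0% of all tested genes were called by limma and 0 by edgeR, with 1025 at an unadjusted p under 0.05. None was called at day 0 (0.0166% of all tested genes, with 2709 at an unadjusted p under 0.05) or for the difference between genotypes in the obstruction change (0.00553%, with 1374 at an unadjusted p under 0.05). The edgeR test called 3 and 1 genes in these 2 comparisons, none of them an S100 gene described here. The KO and WT libraries overlapped for all 7 genes at both days, while 9.93% of all tested genes at day 5 and 25.3% at day 0 did not overlap.

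The intervals show how large a genotype difference these groups leave possible. At day 5 the KO to WT ratio of S100a16 was 0.983 (95% interval 0.854 to 1.13), that of S100a13 was 1.09 (0.938 to 1.26) and that of S100a1 was 1.07 (0.927 to 1.24). Those 3 genes were the most tightly bounded. The ratio was 0.911 for S100a11 (0.703 to 1.18), 0.971 for S100a10 (0.686 to 1.37) and 0.856 for S100a6 (0.573 to 1.28). S100a14 had the widest interval, with a ratio of 0.657 (0.340 to 1.27). Adjusted p was 0.999 for each of the 7. For the difference in the obstruction change, the log2 estimates ran from -0.52 ± 0.39 for S100a6 to 0.18 ± 0.14 for S100a13, with adjusted p of 0.776 and 0.783. Over the alternatives, the S100a6 estimate ran from -0.82 to -0.15. Every KO day 0 library had Y-linked transcripts, while only replicate 2 of KO day 5 did. At day 0, only replicate 1 of the 2 WT libraries had them. That pattern was thus uneven between the KO days compared and between the genotypes at day 0.

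**Figure D4:**
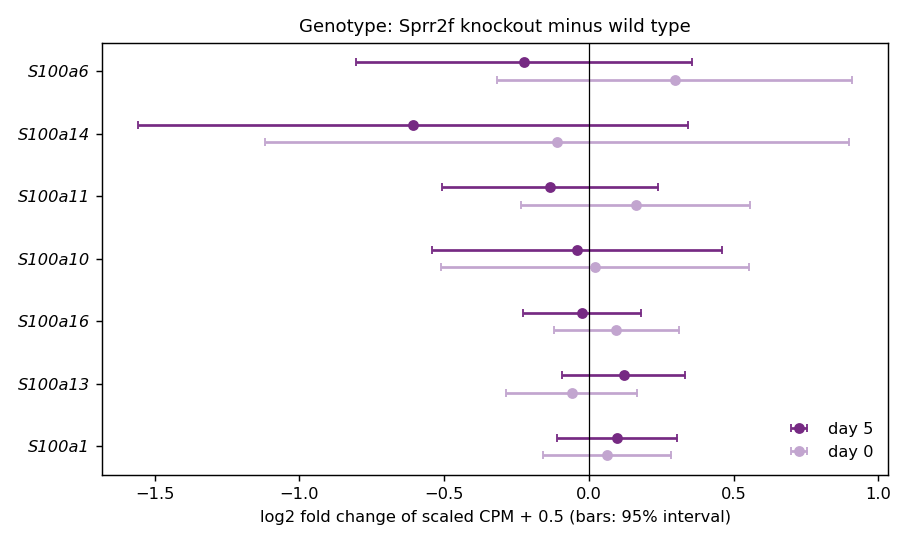
Log2 fold change between genotypes (Sprr2f knockout minus wild type) at day 5 and at day 0, with 95% intervals from limma. Every interval includes 0, and S100a14 has the widest, from -1.56 to 0.34 at day 5.

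On average over the groups that held both patterns, 4 of the 7 genes were called higher in Y-linked than in Xist libraries. S100a10 was not higher in the Y-linked library of WT day 0 kidneys. There it stood at 85.4 scaled CPM per kilobase of exon in the Y-linked replicate 1 and 86.5 in the Xist replicate 2. In a fit with that pattern as a covariate, added after the data had been seen, S100a6, S100a10, S100a11 and S100a14 were called higher and none lower, where 7.94% of all tested genes were called, 3.53% higher and 4.41% lower. The fold difference was 1.67 for S100a6 (95% interval 1.40 to 1.99, adjusted p = 0.00216), 1.38 for S100a11 (1.22 to 1.56, adjusted p = 0.00459), 2.16 for S100a14 (1.5 to 3.10, adjusted p = 0.0148) and 1.44 for S100a10 (1.16 to 1.78, adjusted p = 0.0411). S100a13, S100a16 and S100a1 were not called, with ratios of 1.07, 1.04 and 0.963. The annexin Anxa2 was also called higher, by 0.70 ± 0.17 log2 units (adjusted p = 0.0256). The comparison rests on a single Y-linked library each in KO day 5, WT day 5 and WT day 0, because no KO day 0 library had Xist. Without replicate 2 of KO day 5, the value of S100a10 was 0.20 (adjusted p = 0.4), and the calls of S100a11 (adjusted p = 0.0662) and S100a14 (adjusted p = 0.104) were lost. The S100a10 call held in only 11 of 24 alternatives and was lost without any single library of KO day 5, KO day 0 or WT day 5. The S100a14 call was also lost without replicate 1 (adjusted p = 0.0544) or replicate 2 (adjusted p = 0.0522) of WT day 0, and a 1.5-fold threshold ended all 4 calls. The same Y-linked day 5 libraries stood apart in other respects. The summed level of 9 markers of simple and injured epithelium (keratins and Havcr1 among them) was 3563 scaled CPM in replicate 2 of KO day 5, against 1694 and 1628 in its group, and 3394 in replicate 3 of WT day 5, against 2282 and 2365. The kidney-defining sum was lowest in these same libraries, at 3272 and 3749. The urothelial sum was highest there too, at 179.5 against 111 and 84.3 in KO and 304 against 94.3 and 166 in WT kidneys. So was the adipocyte sum, at 85.3 against 16.4 and 0.929 in KO and 167 against 47.3 and 118 in WT kidneys. At WT day 0 the adipocyte sum was instead lower in the Y-linked replicate 1 (0.545) than in replicate 2 (137). Sex and these marker differences cannot be told apart here.

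Markers of other cell types moved with obstruction beside the S100 genes. Their counts stand against 29.4% of all tested genes higher and 25.4% lower in KO kidneys, and 24.5% higher and 22.6% lower in WT kidneys. All 9 markers of simple and injured epithelium were detected, and 8 rose in each genotype, with a sum of 1628 to 3563 scaled CPM in KO kidneys at day 5 and 612 to 683 at day 0, and of 2282 to 3394 in WT kidneys at day 5 and 675 to 698 at day 0. All 10 macrophage markers rose, with a sum of 891 to 1305 in KO kidneys at day 5 and 119 to 189.7 at day 0. In WT kidneys the macrophage sum was 848 to 1069 at day 5 and 117 to 126 at day 0. All 8 fibroblast and myofibroblast markers rose, with a sum of 2449 to 3881 in KO kidneys at day 5 and 355 to 563 at day 0. In WT kidneys the fibroblast sum was 2597 to 4373 at day 5 and 441 to 532 at day 0. The 10 proximal tubule markers fell except for 1 not called in KO kidneys, and their sum was 2615 to 4969 in KO kidneys at day 5 and 12779 to 14309 at day 0, and 2309 to 3224 in WT kidneys at day 5 and 11853 to 13589 at day 0. T cell markers rose at 7 of 8 genes, while endothelial markers were called for 1 higher and 1 lower of 8. The part of each cell type in the S100 changes was not tested.

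The genes whose pattern over the 12 libraries lay closest to each member, by root mean square difference of centred log2 values, are given as a description. S100a10 lay closest to Cstb, which encodes the protease inhibitor cystatin B, at 0.059 log2 units, followed by Tagln2 at 0.115. The nearest to S100a11 was Lgals1, which encodes the lectin galectin-1, at 0.121. S100a6 lay closest to Stx11, a syntaxin of vesicle fusion, at 0.205, and the third was the collagen gene Col1a1 at 0.262. S100a14 had the loosest neighbours, with Dpysl3 nearest at 0.368. S100a16 lay next to the arginine methyltransferase gene Prmt1 (0.0611), S100a13 to Bin1 (0.0852) and S100a1 to Dad1 (0.0666). Among the members themselves, S100a13 and S100a16 were nearest to each other (0.129), then S100a10 and S100a11 (0.240), and S100a1 and S100a6 farthest (1.84). Also among the 3 nearest were Nek6 for S100a10, Serpinb6a and Mob3a for S100a11, Slc25a24 for S100a6, Vtcn1 and Ctxn1 for S100a14, Psme2 and Pygo2 for S100a16, P4ha2 and Pofut2 for S100a13, and Trp53inp2 and Surf1 for S100a1. All members and these genes share the same 12 libraries and the step between days.

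Known partners of S100 proteins changed in both directions. Of the 24 listed, all tested, 13 were higher and 3 lower in KO kidneys, with 8 not called, and 13 were higher and 4 lower in WT kidneys, with 7 not called. Of all tested genes, 29.4% were higher and 25.4% lower in KO kidneys, and 24.5% higher and 22.6% lower in WT kidneys. The partners' median log2 fold change was 0.28 in KO and 0.37 in WT kidneys, against 0.07 and 0.04 over all tested genes. None of the 24 was called for genotype at either day. The annexins bound by S100A10, S100A11 and S100A6 were among the risers. Anxa2 rose by 2.26 ± 0.27 log2 units in KO and 2.54 ± 0.32 in WT kidneys, and Anxa1 by 1.91 ± 0.18 and 2.14 ± 0.22. Anxa5 and Anxa6 rose too, by 1.11 and 1.40 in KO and by 1.22 and 1.15 in WT kidneys. Anxa11, in contrast, was called lower in WT (-0.42, adjusted p = 0.00855) but not in KO kidneys (-0.18, adjusted p = 0.13). The WT fall of Anxa11 is about as large as the shift that library size scaling gives the median of all genes in WT kidneys (0.41).

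Reads of S100a10 fell relative to those of Anxa2. There were 0.673 to 0.790 S100a10 reads per Anxa2 read in KO kidneys at day 5 and 1.35 to 1.70 at day 0. In WT kidneys the ratio was 0.589 to 0.694 at day 5 and 1.52 to 1.61 at day 0. The days did not overlap in either genotype. For S100a11 to Anxa1 the read ratio was 8.03 to 10.4 in KO kidneys at day 5 and 12.6 to 15.6 at day 0, and 8.46 to 10.8 in WT kidneys at day 5 and 11.5 to 14.2 at day 0.

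Other partners of S100A10 rose as well, Plau, Plg and Kcnk3 excepted. Ahnak, a scaffold at the plasma membrane, rose by 1.23 ± 0.12 log2 units in KO and 1.38 ± 0.14 in WT kidneys. Plat, which encodes tissue plasminogen activator, rose by 2.52 ± 0.17 and 2.34 ± 0.20, while Plau, the urokinase gene, and Plg, the plasminogen gene, were not called. The calcium channel genes Trpv5 and Trpv6 rose by 1.28 ± 0.17 and 2.24 ± 0.18 in KO and by 0.94 ± 0.21 and 1.85 ± 0.21 in WT kidneys. Myh9, the non-muscle myosin heavy chain bound by S100A4, rose by 1.32 ± 0.10 in KO and 1.30 ± 0.12 in WT kidneys. The receptors Ager and Tlr4 rose by 1.30 and 1.60 in KO and by 1.34 and 2.20 in WT kidneys.

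Among partners of S100A13 and S100A1, Fgf1 and Atp2a2 fell. Fgf1, the growth factor exported with S100A13, fell by 1.59 ± 0.21 log2 units in KO and by 1.42 ± 0.26 in WT kidneys, opposite to S100a13. It stood at 101, 121 and 105 scaled CPM in KO kidneys at day 5, against 308 to 355 at day 0. In WT kidneys it stood at 71.1, 70.3 and 116 at day 5, against 319 and 158 at day 0. Il1a was not called (-0.15 in KO and 0.26 in WT kidneys). Atp2a2, which encodes SERCA2, fell by 0.46 ± 0.11 in KO and by 1.01 ± 0.13 in WT kidneys, and the KO call was lost with library size scaling (adjusted p = 0.972). The difference between these changes was not called (0.56 ± 0.16, adjusted p = 0.55). Ppp5c, a phosphatase bound by several S100 proteins, fell by 0.28 and 0.33 in KO and WT kidneys, a direction that turned with library size scaling. Capzb, which encodes an actin capping subunit, rose by 0.31 in KO and 0.41 in WT kidneys, and Sugt1, which encodes the co-chaperone SGT1, by 0.26 and 0.32. The Sugt1 call was lost in KO kidneys without replicate 2 of day 5 (0.18) or replicate 1 of day 0 (0.21), and in WT kidneys without replicate 3 of day 5 (0.27) or replicate 1 of day 0 (0.27). The Capzb call was lost in KO kidneys without replicate 2 of day 5 (0.22) or replicate 2 (0.26) or 4 (0.25) of day 0, and in WT kidneys without replicate 2 of day 0 (0.38). Cacybp, Nucb1, Kcnk3 and Ryr2 were not called in either genotype.

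Of the 5 tested S100 genes outside the described set, 3 were higher, 1 was lower and 1 was not called in each genotype. Over all tested genes, 29.4% were higher and 25.4% lower in KO kidneys, and 24.5% higher and 22.6% lower in WT kidneys. S100g, the calbindin-D9k of calcium-transporting distal tubule cells, which lies outside the chromosome 3 cluster, stood at 210.4, 211 and 253 scaled CPM in KO kidneys at day 5, against 1245 to 1360.3 at day 0. It stood at 143, 227 and 137 in WT kidneys at day 5, against 1260.2 and 1487 at day 0. Its log2 fold change was -2.55 ± 0.15 (adjusted p = 7.29e-08) in KO and -3.05 ± 0.18 (adjusted p = 1.55e-07) in WT kidneys. S100a8 and S100a9, the calprotectin subunits of neutrophils and monocytes, rose by 2.27 ± 0.47 and 2.50 ± 0.52 in KO and by 3.76 ± 0.56 and 4.10 ± 0.63 in WT kidneys. In KO kidneys these values were 1.63 and 1.75 without replicate 2 of day 5, 2.89 and 3.22 without replicate 3, and 3.48 and 3.69 with edgeR on recovered reads, and edgeR gave 4.44 and 4.83 in WT kidneys, all still called. For genotype at day 5 they were not called (-1.87, adjusted p = 0.656, and -1.85, adjusted p = 0.767). Without replicate 2 of KO day 5 both were called (-2.51 and -2.60, each at adjusted p = 0.0442), and KO day 5 then held only Xist libraries. Without replicate 3 of KO day 5 neither was called (-1.25 and -1.13, each at adjusted p = 0.999). Among Y-linked libraries alone, where a single library stands for each day 5 group, the values were -1.19 and -0.98. The summed level of 8 neutrophil markers at day 5 was 10.5 to 18.1 scaled CPM in KO and 19.9 to 24.6 in WT kidneys. S100a7a rose by 1.10 ± 0.21 in KO and 0.73 ± 0.25 in WT kidneys from few reads, 62 in all at KO day 5 and 37 at WT day 5, and the WT call was lost when any 1 of the WT libraries was left out. S100b was not called, and S100a2, S100a3, S100a5, S100a7l2 and S100z were too low to be tested.

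The S100 genes of chromosome 3 flank the Sprr genes within 3.05 Mb that hold 121 annotated genes, 75 of them protein-coding and 14 of them S100 genes. The described members start 1752 to 1854 kb before Sprr2f, and S100a11 and S100a10 start 1155 and 1189.9 kb after it. Of the 22 tested genes between the outermost S100 genes, 15 were higher and 4 lower after obstruction in KO kidneys, and 14 were higher and 3 lower in WT kidneys, where 54.8% of all tested genes were called in KO and 47.1% in WT kidneys. Of the 12 that are no S100 gene, 6 were higher and 3 lower in KO, and 5 were higher and 2 lower in WT kidneys. None of the 22 was called for genotype at day 5, and they include Sprr2f itself (-4.14 log2 units, adjusted p = 0.152). S100a1, S100a13, S100a14 and S100a16 adjoin one another, with Chtop before S100a1 and Gm24593 after S100a16. S100a5 lies between S100a4 and S100a6, Gm42674 before S100a4 and Gm19739 after S100a6. Gm29950 lies between S100a11 and S100a10, Gm36953 before S100a11 and Gm5541 after S100a10.

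**Figure D5:**
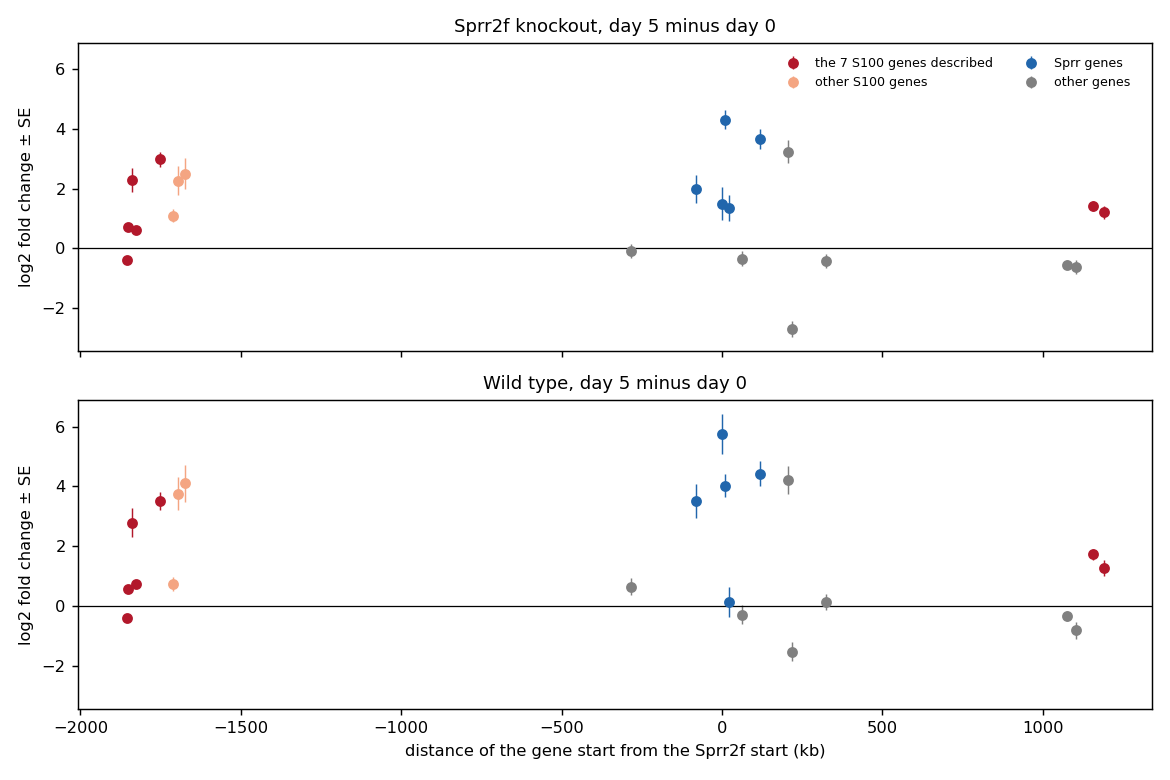
Log2 fold change from obstruction (± SE) of the 22 tested genes between the outermost S100 genes of chromosome 3, by distance of the gene start from that of Sprr2f in kb, in Sprr2f knockout (top) and wild type (bottom) kidneys. Members lie at both ends of the region, with rises and the fall of S100a1 at the left end and rises at the right end. That fall turned and was not called with library size scaling.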

How the data were processed

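Per the labels' protocols, RNA was sequenced as 50-base reads from an mRNA library kit. Per the submitters' processing notes, STAR, SAMtools, HTSeq and GRCm38.p6 were used, and the strand setting and treatment of reads on several genes are not given in the sources used here. The deposited values are CPM, scaled by the authors to a common total of counted reads, although the table is named for counts. Dividing each column by its smallest step gave whole reads (100% of 665652 values within 0.001 of a whole number), 16567256 to 19398882 per library, on which the count tests were run.

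CPM divided by TMM factors (edgeR 4.0.16) were fitted as log2(scaled CPM + 0.5) with limma 3.58.1 in R 4.3.3, all 12 libraries and 4 groups together, for genes kept by filterByExpr (minimum count 10, minimum total 15), 18093 genes with 99.9% of reads. The comparisons were obstruction in each genotype, genotype at each day and their interaction. The fit was also run on simulated counts in which a small set of genes was raised in a single group. In the data many genes moved in both directions, so that run is no check of the scaling. Alternatives were edgeR and DESeq2 1.42.0 and limma-voom on recovered reads, other scaling factors, pseudocounts and filters, mitochondrial genes left out, a 1.5-fold threshold, the sex chromosome pattern as a covariate, Y-linked libraries alone, each library left out, and, added after the data had been seen, Xist libraries alone and the size of the pattern's own term. Replicates were numbered in accession order.

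The members and all gene lists were chosen with earlier results of these data known. Named are all members, the tested genes of the lists of other S100 genes and S100 partners, the 3 genes nearest each member (a symbol that is no predicted model, mean log2 CPM of at least 3), Sprr2f and neighbouring genes. GENCODE M21, used for coordinates, holds 55144 of the identifiers and lacks 327. Promoter windows span 250 bases before to 50 after a RefSeq start. Figures used matplotlib 3.10.9 in Python 3.11.15.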

Additional observations from a re-analysis of the deposited data

Results flagged for a closer look

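Among the 36 S100 and partner genes checked in the 4 KO kidneys at day 0, 3 had a library far from the others, and chance alone gives about 1 in 20 such groups. Anxa2 was highest in replicate 1, at 85.7 scaled CPM, with the others at 62.7 to 65.1. Ahnak was lowest in replicate 2, at 91.7, with the others at 108 to 111. Trpv5 was lowest in replicate 1, at 15.9, with the others at 20.0 to 20.2.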

How the results depend on the processing

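No paired analysis was possible. All libraries are of left kidneys, so day 0 and day 5 libraries came from different animals, and the labels give no replicate numbers. Over 28 alternatives and the 5 comparisons of genotype and day, 940 of 952 log2 values of the 7 members kept their side of the threshold and, where called, their direction. Another 10 lost a call and 2 called ones changed sign. Of the 385 values called in the main fit, all for obstruction, 373 stayed called. The other 567, for genotype or the interaction, stayed not called in comparisons where few or no genes of any kind were called. Of these 567 values, 42 changed sign, among them S100a14 for genotype at day 0 (-0.86 to 0.66) and for the interaction (-1.28 to 0.52). For Y-linked against Xist libraries, over 24 alternatives, the call held in 23 for S100a6, 22 for S100a11, 20 for S100a14 and 11 for S100a10. Beyond these, 183 of 191 counts of members stayed within 1.5 times. With library size alone, S100a1 turned to 0.069 in KO and 0.0042 in WT kidneys, and so did the partners Cacybp (0.33 in KO and 0.28 in WT kidneys), Ppp5c (0.17 in KO and 0.087 in WT kidneys), Anxa11 (0.27 in KO kidneys) and Nucb1 (0.45 in KO kidneys); that setting moves the median of all genes up by 0.44 in KO and 0.41 in WT kidneys. Members called lower after obstruction were 0 in both genotypes with library size alone, with a 1.5-fold threshold and among Y-linked libraries alone, where single libraries stand for KO day 5 and for both WT groups. Leaving out 1 library, that count in WT kidneys ranged from 0 (without WT day 0 replicate 2, when the lone library is assumed to vary like the other groups) to 1. Members called higher in WT kidneys were 3 with a 1.5-fold threshold, which raises the size to be passed, and 6 under every other alternative. The other causes were not tested. For KO kidneys, S100a14 changed by 3.02 with the sex chromosome pattern as a covariate, against 2.28 without it, and stayed called. Few reads at day 0 limit the precision of S100a14 and S100a7a.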
